A study of Mus musculus with 7 samples.

Results

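Saline-injected primary tumours of 4T1 cells, the vehicle group of a study on tumour vesicles, were described here by their own transcriptome. The samples were the 3 saline libraries of the 7 in the series, and no vesicle library was used. Of the 55487 genes in the deposited table, the 21961 nuclear protein-coding genes of the GENCODE M21 annotation were kept. Their values in transcripts per 1000000 (TPM), which are corrected for transcript length, were rescaled to a sum of 1000000 in each library and are called coding TPM below. All 3 tumours had grown from 4T1-12b cells that carry luciferase, stably transfected and placed in the fat pad of the mammary gland, with BALB/c mice labelled as wild type (WT) as hosts. Once a tumour had reached about 150 mm3 it was given 50 µl of saline into the tumour, 6 times at intervals of 2 days, and the samples are labelled day 12. The labels give no age. The library numbers are not tied to separate animals in the labels, so the spread below is the spread between these libraries and may be technical. With 1 group of 3 there was no contrast to test, and values are given as levels, shares and ranges without p-values.

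The 4T1 line came from a spontaneous mammary carcinoma of a BALB/c mouse and is widely used as a model of metastatic breast cancer, since its cells spread to lung, liver and bone from the fat pad. It grows in mice with an intact immune system, so a piece of tumour holds carcinoma cells together with fibroblasts, vessels and white blood cells. The line is known for releasing G-CSF (Csf3), which drives the bone marrow to put out neutrophils. In bulk RNA, fewer cells of a type and less RNA per cell cannot be told apart, and each share below is a share of transcripts, not of cells.

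The libraries were similar in range, and replicate 1 stood apart in RNA make-up. Nuclear coding genes took 56.8% of the deposited TPM in replicate 1, against 73.8% and 74.7% in replicates 2 and 3. Mitochondrially encoded messages took 21.1%, 12.5% and 11.9%, nuclear ribosomal RNA genes 2.204%, 1.42% and 0.807%, and unprocessed pseudogenes 15.3%, 7.99% and 8.72%. After rescaling, 11199 to 11340 genes reached 1 coding TPM, and 5975 genes were listed at 0 in all 3. The median over genes of the log2 difference from the mean of the 3 was -0.13, 0.04 and 0.06. Median-of-ratios size factors, which remove that shift, were 0.926, 1.05 and 1.03. Across the 6913 genes with a mean of at least 10, which are not independent replicates, log2(coding TPM + 1) correlated at r = 0.974 between replicates 1 and 2, 0.959 between 1 and 3, and 0.963 between 2 and 3. Read numbers cannot be taken from TPM, so depth is unknown here and values carry no counting error.

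Genes of the translation machinery led the list of the highest genes, followed by calcium-binding S100 proteins, ferritin and osteopontin. Of the 25 genes with the highest mean, 17 were ribosomal protein genes. Among them were Rpl41, Rps27, Rplp1, Rps15, Rps12, Rplp2, Rpl13a, Rps9, Rps28, Rps10, Rps24, Rps21, Rpl23a, Fau and Rps27a. Rpl41 ranked first at 13639 ± 1093 coding TPM (SD, n = 3), and all ribosomal protein genes together took 36.4%, 32.2% and 31.8% of the coding total in replicates 1, 2 and 3. Short transcripts such as these, and genes with processed pseudogenes, share reads that the authors' quantification could split, so their order among themselves is uncertain. Tpt1, a growth-linked protein whose message is under translational control, stood at 15178, 11580 and 13360, and Eef1a1, the elongation factor that brings aminoacyl-tRNA to the ribosome, at 10723, 10379 and 10424. Ppia, the prolyl isomerase cyclophilin A, had 7706, 8277 and 7143.

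The other 5 of these 25 genes encode proteins tied to motility, iron and matrix. S100a6 stood at 8720, 15565 and 12594 coding TPM. Its neighbour S100a4, known as a promoter of metastasis, stood at 4592, 11286 and 9370 (mean 8416 ± 3447, SD, n = 3). Both S100 genes had their lowest value in replicate 1. Fth1, the ferritin heavy chain that stores iron, was highest in replicate 1, with 11464, 6806 and 6412. Lgals1, the secreted lectin galectin-1, was at 5027, 7019 and 7626. Spp1 encodes osteopontin, a secreted phosphoprotein of bone, macrophages and many carcinomas. It was one of the steadiest of these genes, at 6072, 6742 and 6272 (6362 ± 343, SD, n = 3). The 25 genes together held 22.01%, 20.3% and 20.0% of the coding total.

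**Figure D1:**
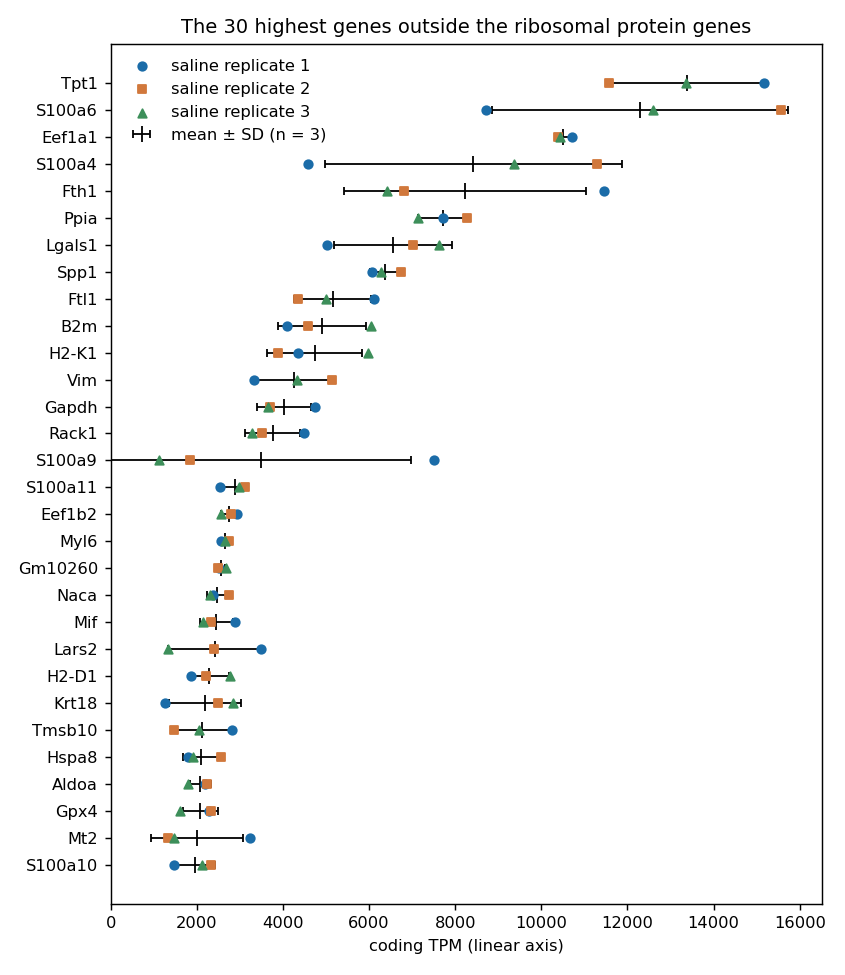
Coding TPM (linear axis) of the 30 highest genes outside the ribosomal protein genes, with 1 marker for each saline replicate and a bar for the mean ± SD (n = 3). Eef1a1 and Spp1 lie close together in the 3 libraries, whereas S100a9 runs from 1131 in replicate 3 to 7503 in replicate 1.

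Tumour identity was read from lists of marker genes. The epithelial list was led by the simple-epithelium keratins Krt18 (1258, 2484 and 2836 coding TPM) and Krt8 (1053, 2326 and 2265), which pair in luminal cells. Spint2, a membrane protease inhibitor, was nearly level at 449, 445 and 439. Epcam, the epithelial adhesion molecule, stood at 66.3, 106 and 212 in replicates 1, 2 and 3. E-cadherin (Cdh1) followed the same order with 37.3, 78.2 and 113. Markers of the basal and squamous layers were low or absent, with Krt14 at 13.9, 26.3 and 15.2, Krt5 at a mean of 0.0391 and Krt6a listed at 0. The 22 genes of the list summed to 0.328%, 0.583% and 0.667% of the coding total (0.526% ± 0.177, SD, n = 3).

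Of the 20 epithelial genes with a mean of at least 1, 17 had their highest value in replicate 3, 2 in replicate 2 and 1 in replicate 1. Among all 11344 coding genes with that mean, 16.4% were highest in replicate 1, 41.4% in replicate 2 and 42.2% in replicate 3. With size factors these shares became 31.1%, 31.1% and 37.8%, and 16 of the 20 epithelial genes were highest in replicate 3.

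Mesenchymal genes were present beside the epithelial ones. The list of 12 genes took 0.819%, 1.68% and 1.41% of the coding total, of which S100a4 made up 64.6%. Vim, the intermediate filament vimentin, stood at 3323, 5132 and 4321, and the hyaluronan receptor Cd44 at 148, 216 and 212. Tgfbi, a secreted matrix protein induced by TGF-beta, had 39.3, 74.2 and 114. Among the transcription factors of the epithelial-mesenchymal transition, Snai1 (32.1, 24.1 and 36.3) and Twist1 (33.2, 31.9 and 19.9) were the highest. Snai2 had a mean of 0.365, and N-cadherin (Cdh2) one of 0.142. Of the 10 genes with a mean of at least 1, 3, 5 and 2 were highest in replicates 1, 2 and 3, and 4, 3 and 3 with size factors.

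Hormone receptor genes were low. The estrogen receptor gene Esr1 was at 1.00, 0.753 and 0.948 coding TPM, and the progesterone receptor gene Pgr at a mean of 0.00825. Erbb2, the gene of HER2, was at 11.7, 12.8 and 16.3. The stem and progenitor surface genes Cd24a and Ly6a (Sca-1) were at 102, 123.1 and 96.4 and at 218, 160 and 348. Trp53 was at 26.4 ± 3.96, its target Cdkn1a at 34.8 ± 1.92 and the cell cycle inhibitor gene Cdkn2a at 0.755 ± 0.655 (SD, n = 3 each). Milk protein genes of the normal gland were near 0. None of the 8 members of that list reached a mean of 1, Wap, Csn1s2a and Btn1a1 were listed at 0, and Csn3 was the highest at 0.881, 0.195 and 0.177.

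Genes of cell division were mostly highest in replicate 2. The 22 genes of the proliferation list summed to 0.0960%, 0.155% and 0.133% of the coding total, and 17 of the 22 were highest in replicate 2, 5 in replicate 3 and 0 in replicate 1. Of all genes with a mean of at least 1, 41.4%, 42.2% and 16.4% were highest in replicates 2, 3 and 1. Cdk1, the mitotic kinase, stood at 140, 262 and 193. The replication clamp Pcna had 131, 195 and 164, the microtubule regulator Stmn1 132, 179 and 168, and the topoisomerase gene Top2a 86.0, 154 and 115. Mki67, which encodes the Ki-67 antigen, was at 9.92, 23.04 and 13.4. With size factors 16 of the 22 were highest in replicate 2, beside 31.1% of all genes.

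Glycolysis and oxygen-response genes ran at a high level in each tumour. Their 20 genes held 1.59%, 1.49% and 1.33% of the coding total, and all 20 had a mean above 10. The glycolytic enzymes Gapdh (4752, 3695 and 3647), Aldoa (2198, 2244 and 1799), Ldha (1880, 2138 and 1846) and Pkm (1851, 2026 and 1987) were the highest. Of the 20, 12 were highest in replicate 1, beside 16.4% of all genes, and 16 with size factors, beside 31.1%. The widest ranges were those of Vegfa, the vessel growth factor (55.2, 32.1 and 14.7), and Bnip3, a mitophagy receptor induced by low oxygen (234, 200 and 74.2). Car9, the carbonic anhydrase used as a hypoxia marker, had 267, 170 and 132.

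**Figure D2:**
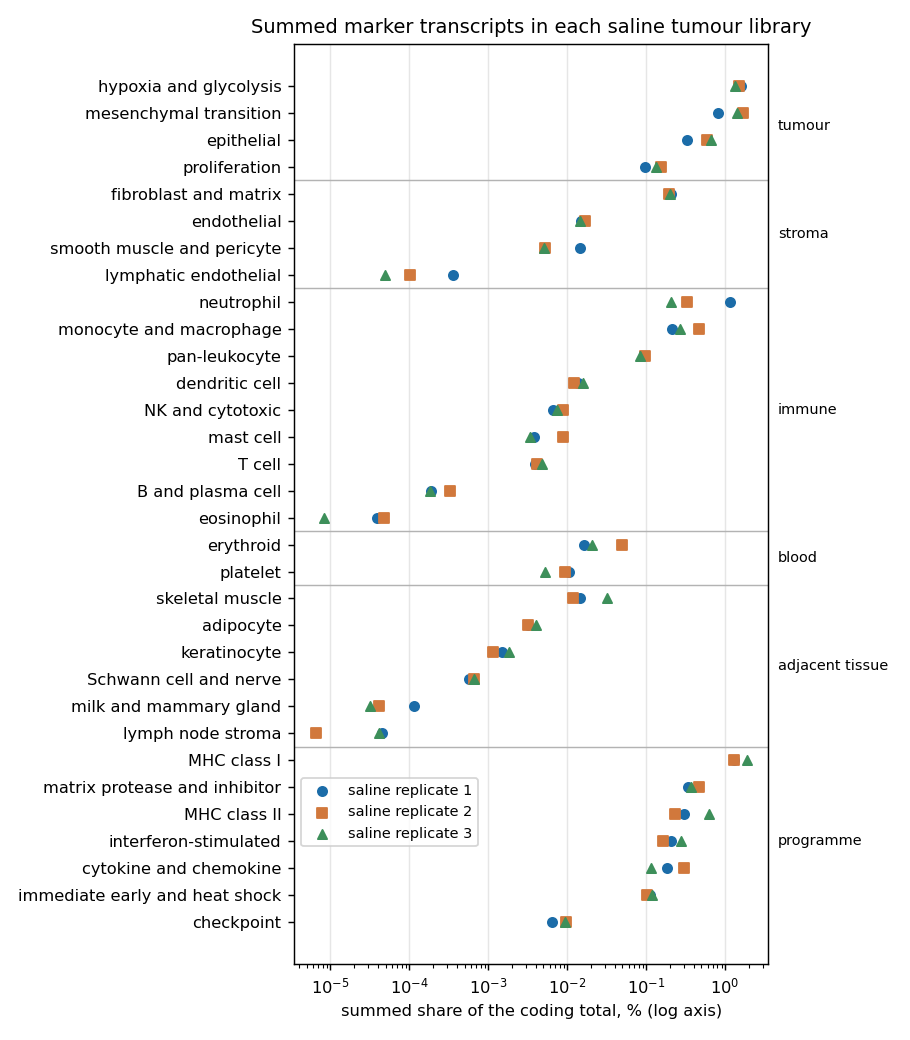
Summed share of the coding total (%, log axis) of 32 marker and programme lists, with 1 marker for each saline replicate and the classes of lists at the right. Immune sums are led by neutrophil and macrophage genes, B cell and eosinophil sums lie more than a factor of 100 below them, and the neutrophil sum runs from 0.205% to 1.16%.

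Transcripts of the stromal lists were a small part of the total, and the level sum of the fibroblast and matrix list rested mostly on a single gene, Fn1. The fibroblast and matrix list of 22 genes summed to 0.206%, 0.196% and 0.202% (0.201% ± 0.00536, SD, n = 3). Fibronectin (Fn1) made up 65.3% of that sum and stood at 1064, 1330 and 1551. Which cells made it cannot be told from bulk RNA. Of the 22 genes, 18 were highest in replicate 1, beside 16.4% of all genes, and 19 with size factors. Without Fn1 the list had a mean share of 0.0699%. The median member of the list stood at 38.4, 20.3 and 12.8 coding TPM in replicates 1, 2 and 3. The level sum therefore does not describe most of its members. Sparc, a collagen-binding matrix protein, stood at 233, 141 and 95.9, and the surface glycoprotein Thy1 at 132, 92.4 and 65.6. Collagen VI (Col6a1), at 74.6, 73.8 and 114, was highest in replicate 3. The fibrillar collagen genes Col1a1 (44.2, 21.6 and 16.7) and Col1a2 (40.6, 19.0 and 13.8) were well below Fn1 in each library.

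Vessel and mural cell genes were low. The endothelial list summed to 0.0151%, 0.0169% and 0.0145%, with Egfl7 (52.3, 37.3 and 37.5), the TGF-beta co-receptor Eng (23.5, 29.4 and 44.6), Plvap of fenestrated vessels (13.4, 22.2 and 14.4) and Pecam1 (11.6, 16.8 and 10.5) as its highest members. Cdh5, the endothelial cadherin, had 4.79, 11.4 and 4.02. Of the 14 genes with a mean of at least 1, replicates 1, 2 and 3 led 4, 8 and 2. The shares of all genes were 16.4%, 41.4% and 42.2%. Smooth muscle and pericyte genes summed to 0.0145%, 0.00529% and 0.00509%. All 5 members with a mean of at least 1 were highest in replicate 1, beside 16.4% of all genes. Among them were Tagln (85.7, 19.9 and 21.9) and Acta2 (30.4, 9.84 and 11.7), which encode contractile proteins of smooth muscle and of activated fibroblasts. The other 3 were Mcam, Rgs5 and Cspg4. Lymphatic markers were near 0, apart from Lyve1 at 3.32, 0.703 and 0.236.

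Transcripts of the immune cell lists were mostly myeloid. The 130 genes of the 9 immune cell lists summed to 1.501%, 0.923% and 0.592% of the coding total, and S100a9 alone made up 34.7% of the mean sum. The pan-leukocyte list was nearly level in sum, at 0.0935%, 0.0975% and 0.0842%. Its highest member Tyrobp, a signalling adaptor of myeloid and NK cells, made up 29.2% of the mean sum and stood at 314, 283 and 206. The sum is therefore not an even measure of all leukocytes. Ptprc, the gene of CD45, was at 4.89, 8.30 and 5.74. The pan-leukocyte list also held Fcer1g (181, 236 and 179), Cd52 (118, 100 and 133) and Arhgdib (87.1, 71.9 and 65.4). The ratio of the epithelial sum to the pan-leukocyte sum was 3.51, 5.98 and 7.93.

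Neutrophil genes held the largest immune share in replicate 1 and spread widely among the libraries. Their 24 genes summed to 1.16% in replicate 1, 0.326% in replicate 2 and 0.205% in replicate 3 (0.565% ± 0.523, SD, n = 3), a ratio of 5.68 between the highest and the lowest, and to a mean of 0.266% without replicate 1. Of the 21 with a mean of at least 1, 17 were highest in replicate 1, beside 16.4% of all genes, and 18 with size factors, beside 31.1%. S100a9 and S100a8 form calprotectin, the main cytosolic protein of neutrophils, and stood at 7503, 1839 and 1131 and at 2958, 751 and 403. Without this pair the list still ran from 0.119% in replicate 1 to 0.0675% and 0.0517%. Stfa2l1, a stefin of myeloid cells, had 383, 124 and 52.4. Padi4, the enzyme that citrullinates histones, had the opposite order, with 159, 277 and 286. Lineage receptor genes were far below the calprotectin genes, and the granule genes Ltf (5.76, 0.561 and 1.19) and Ngp (10.03, 6.07 and 4.05) were low as well. The G-CSF receptor gene Csf3r was at 18.8, 16.5 and 7.29, Cxcr2 at 6.23, 6.74 and 3.97 and Ly6g at 3.71, 2.16 and 0.895. The myeloid growth factor gene Csf3 was also highest in replicate 1, at 163, 113 and 76.8. Replicate 1 was also the library with the higher mitochondrial and ribosomal RNA shares given above, and their part in these differences was not tested.

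Macrophage genes were highest in replicate 2. The monocyte and macrophage list took 0.215%, 0.464% and 0.271%, and 17 of 22 genes were highest in replicate 2, beside 41.4% of all genes. With size factors 16 of the 22 were. Arg1, the arginase of alternatively activated and tumour-associated macrophages, was the highest member at 564, 1076 and 423. Lysozyme (Lyz2) stood at 345, 984 and 372, the complement subunit gene C1qa at 298, 684 and 529 and the lysosomal protease gene Lgmn at 265, 451 and 322. Adgre1, which encodes F4/80, was at 2.73, 8.80 and 5.68. The monocyte gene Ly6c2 was an exception, at 9.42, 14.0 and 34.6. The ratio of the neutrophil to the macrophage sum was 5.42 in replicate 1, 0.703 in replicate 2 and 0.757 in replicate 3.

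Transcripts of the listed lymphocyte genes were scarce. The lists held no immunoglobulin genes and no genes of the antigen-binding T cell receptor chains, so those transcripts were not counted here. The T cell list summed to 0.00385%, 0.00419% and 0.00484%, with Cd3g at 10.9, 11.4 and 12.3, the kinase Lck at 4.76, 5.26 and 7.04, the co-receptor Cd8a at 3.87, 3.05 and 4.70 and the adaptor Lat at 3.70, 3.18 and 4.67. Of its 10 genes with a mean of at least 1, 8 were highest in replicate 3, beside 42.2% of all genes. Cd4 had a mean of 0.442 and Foxp3 one of 0.129. NK and cytotoxic genes summed to 0.00659%, 0.00896% and 0.00738%, led by the granzyme genes Gzmc (16.8, 25.8 and 20.1) and Gzmb (13.1, 21.01 and 15.8), Nkg7 (14.0, 13.1 and 14.5) and Gzma (9.41, 15.4 and 9.87). None of the 13 B and plasma cell genes reached a mean of 1. None of the 5 eosinophil genes did either, with Epx and Il5ra listed at 0.

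Dendritic cell genes summed to 0.0136%, 0.0123% and 0.0158%, of which the actin bundler Fscn1, a gene that carcinoma cells also express, made up 70.1%. The lineage markers Flt3, Clec9a, Xcr1 and Siglech had means of 0.144, 0.133, 0.0679 and 0.0174. The next members were Cacnb3 (17.0, 13.9 and 23.1), Batf3 (9.67, 7.41 and 8.49) and Clec10a (5.51, 3.67 and 3.08). Mast cell genes were low and had their highest sum in replicate 2, at 0.00382%, 0.00894% and 0.00340%. The tryptase genes Tpsab1 (4.97, 21.8 and 0.703) and Tpsb2 (4.89, 17.1 and 0.675) and the chymase gene Mcpt1 (11.7, 10.6 and 0.730) had their lowest values in replicate 3. Mcpt8, a protease of basophils, had its highest there, at 6.21, 14.4 and 28.9.

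Genes typical of blood cells and of tissue next to a tumour were measured as well, and their source was not tested. Globin genes were highest in replicate 2, with Hbb-bs at 85.9, 288 and 98.3, Hba-a2 at 42.1, 120 and 67.3, Hba-a1 at 26.4, 75.8 and 38.4 and Hbb-bt at 4.77, 14.9 and 3.84. The platelet chemokine Pf4, which macrophages also make, stood at 93.7, 91.4 and 49.3. Skeletal muscle genes were highest in replicate 3, in all 12 members with a mean of at least 1, beside 42.2% of all genes. Members such as Acta1, Ckm and Tnnc2 reached that mean only through replicate 3. The count was therefore partly fixed by the filter and adds no support. The muscle actin gene Acta1 stood at 0.401, 0.0744 and 29.3, the fast troponin T gene Tnnt3 at 4.27, 3.79 and 24.0, and the muscle creatine kinase gene Ckm at 0, 0.179 and 4.86. The list's highest members, Eno3 (72.5, 80.6 and 113) and Tnni2 (65.0, 27.9 and 97.4), were present in all 3 libraries while most others were near 0 in replicates 1 and 2. Adipocyte genes other than Fabp4 (23.7, 21.4 and 28.9), Lipe (7.01, 9.22 and 8.11) and Cfd (0.367, 0.946 and 2.71) had means under 1, and Adipoq had a mean of 0.0624. Keratinocyte genes were led by Krt10 (9.90, 8.23 and 6.23) and Krt15 (1.18, 1.30 and 11.5), with 7 of 12 listed at 0. Nerve sheath genes were led by Mbp (4.25, 4.93 and 4.80) and lymph node stroma genes did not reach a mean of 1.

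Most genes were close to level among the 3 tumours. Over the 6913 genes with a mean of at least 10 coding TPM, the ratio of the highest to the lowest library, computed on coding TPM + 1, had a median of 1.32, a 90th percentile of 1.85 and a 99th percentile of 3.87. The ratio reached 2 in 517 genes (7.48%) and 4 in 66 genes (0.955%). The 66 are called variable below, and log2 of the ratio is called the log2 range. Just inside this limit lay Serpinf1 and Krt7 with a log2 range of 2.01 each, and just outside lay Ctsk, the bone-matrix protease cathepsin K, at 2.00 and Acot1 at 1.98. Ctsk stood at 15.4, 35.0 and 8.01. At the other end, the steadiest genes with a mean of at least 100 included H2afv (352, 354 and 352), Ppp1r11 (151, 150 and 152), Ndufs5 (218, 216 and 215), Uqcc2 (586, 581 and 576) and Vdac1 (142, 139 and 140), a histone variant, a phosphatase inhibitor and 3 mitochondrial proteins.

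**Figure D3:**
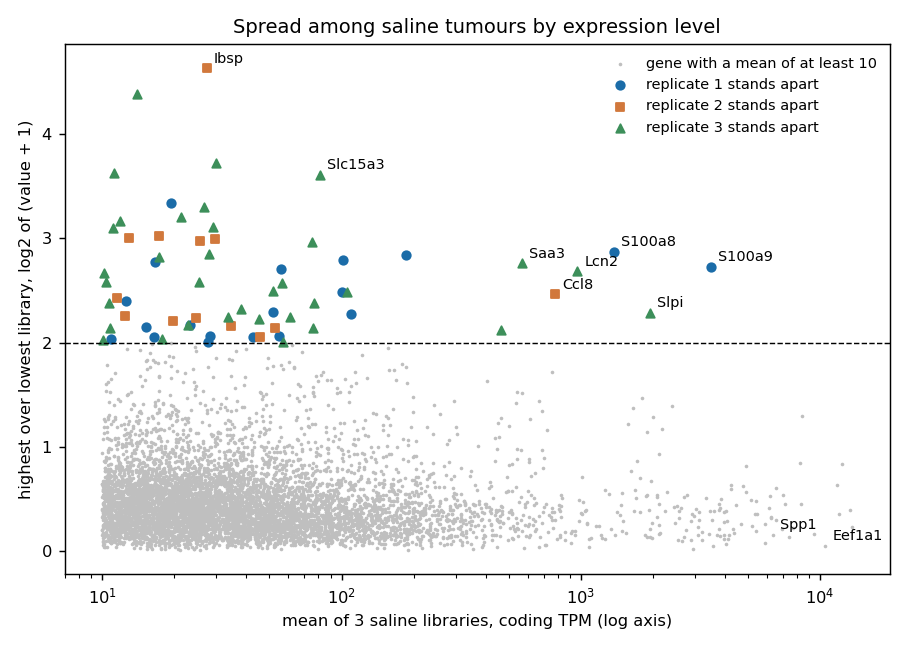
The log2 range, log2 of the ratio of the highest to the lowest saline library on coding TPM + 1, against mean coding TPM (log axis) for 6913 genes, with the 66 variable genes marked by the library that stands apart and the dashed line at 2. S100a8 and S100a9 combine a log2 range above 2.7 with means above 1000, while Spp1 and Eef1a1 lie near the bottom.

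Each variable gene was assigned to the library that lies farther from the middle one. Replicate 1 was the higher library in 17 of 6913 genes (0.246%) and the lower in 2 (0.0289%). The counts were 10 (0.145%) and 3 (0.0434%) for replicate 2, and 12 (0.174%) and 22 (0.318%) for replicate 3. Leaving out replicate 3 left 12 variable genes, 11 of them among the 66, and leaving out replicate 1 left 42, 34 of them among the 66.

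Genes with replicate 1 as the higher library included genes of neutrophils, matrix and contractile cells. The 6 with the largest gap were Mfap5, a microfibril protein of fibroblasts (45.9, 8.82 and 3.64), Ndufa4l2, a mitochondrial protein induced by low oxygen (28.2, 4.54 and 5.12), S100a9, Plac8, a myeloid and epithelial lysosomal protein (111, 25.9 and 27.1), S100a8 and Tagln. The others included the neutrophil genes Retnlg (221, 63.5 and 44.9) and Stfa2l1, the neutrophil-attracting chemokine genes Cxcl2 (44.9, 16.04 and 9.19) and Cxcl3 (21.6, 6.47 and 4.50), Rarres2, which encodes the chemoattractant chemerin (207, 67.9 and 29.1), and Serpinf1 (53.0, 17.5 and 12.4). Of the neutrophil list, 7 of the 11 members with a mean of at least 10 were variable in any pattern, and of the fibroblast and matrix list 4 of 15, beside 0.955% of all genes. Stefins are near-identical copies of each other, and their separate values are uncertain. Genes with replicate 1 as the lower library included Mcpt8 (6.21, 14.4 and 28.9), and with size factors no gene was assigned this way.

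Genes with replicate 2 as the higher library included genes of tissue-resident macrophages and granzymes. Ccl8, a chemokine for monocytes and T cells, stood at 347, 1681 and 303 (777 ± 783, SD, n = 3). The scavenger receptor genes Mrc1 (32.3, 103 and 22.7) and Cd163 (7.85, 23.2 and 3.48) and the folate receptor gene Folr2 (16.9, 54.1 and 6.02) mark resident macrophages. The remaining named genes were Nptx1, a neuronal pentraxin (7.37, 65.5 and 15.9), and Loxl4, a lysyl oxidase that crosslinks collagen (7.54, 25.3 and 4.51). A set of resident macrophage genes was put together after these values were seen. It holds Ccl8, Mrc1, Cd163 and Folr2 again, so its counts add no separate support. Of its 11 genes with a mean of at least 1, 7 were variable in any pattern, beside 0.955% of genes with a mean of at least 10. Among the 7, Fcna and Retnla were assigned to replicate 3 as the lower library. Lyve1, with a mean of 1.42, was below the limit for variable genes. In replicate 2, 10 of the 11 were highest, beside 41.4% of all genes, and 10 with size factors, beside 31.1%. Lyve1 was the exception. All 8 granzyme genes with a mean of at least 1 were highest in replicate 2, beside 41.4% of all genes. This family was also chosen after its values were seen. It holds the variable genes Gzmf and Gzmd again, so its count adds no separate support. Gzmf stood at 26.2, 64.0 and 13.5, Gzmd at 19.3, 45.9 and 8.96, and Gzmb, less widely spread, at 13.1, 21.01 and 15.8. Several granzyme genes are near-identical copies, and their separate values are uncertain.

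The 3 genes with replicate 2 as the lower library were Ibsp, Ptpru and Tpm2. Ibsp, which encodes bone sialoprotein, had the widest log2 range of the named genes (4.64), at 18.9, 1.51 and 61.5. Ptpru, a receptor tyrosine phosphatase, had 11.6, 2.27 and 25.2, and the tropomyosin gene Tpm2 34.9, 6.78 and 17.7. Ibsp belongs to the same family of acidic bone phosphoproteins as Spp1 and Dmp1, and the 3 are close together on chromosome 5. Dmp1 stood at 33.8, 25.3 and 124, lowest in replicate 2 like Ibsp, whereas Spp1 had its highest value there, or in replicate 1 with size factors.

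Genes with replicate 3 as the higher library were of mixed kinds. Slc15a3, a lysosomal peptide and histidine transporter of phagocytes, stood at 26.6, 15.5 and 201. Crispld2, a secreted protein, had 2.36, 3.13 and 27.9, and Ncmap, a myelin-associated protein, 4.35, 1.35 and 28.1. Nmnat2, an enzyme of NAD synthesis, had 3.68, 2.92 and 23.9, Abcc3, an efflux pump for organic anions, 9.85, 11.2 and 47.8, and Tnnt3 is the muscle gene given above. Beside Tnnt3, the summed skeletal muscle list stood at 0.0145%, 0.0117% and 0.0323%, and its part in the other genes of this group was not tested. The epithelial keratin Krt7 (45.2, 24.5 and 101) was the only epithelial list member that was variable.

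Genes with replicate 3 as the lower library were the largest group, at 22. Dcn, the collagen-binding proteoglycan decorin, stood at 31.9, 29.4 and 2.57, and Chil3, the chitinase-like protein Ym1 of alternatively activated macrophages, at 41.0, 38.1 and 4.80. Pmp22, a membrane protein of myelin and fibroblasts, had 22.4, 26.7 and 2.93, Lgr6, an R-spondin receptor of epithelial progenitors, 31.4, 38.8 and 5.67, and Gzmg 24.4, 51.0 and 4.28. Saa3, an inflammation-induced serum amyloid, stood at 710, 861 and 126. Other secreted proteins of inflamed epithelium and myeloid cells were in this group at high levels. Slpi, the leukocyte protease inhibitor, had 1922, 3233 and 661, the iron-siderophore binder lipocalin 2 (Lcn2) 1813, 794 and 282, and Wfdc17 700, 530 and 160. Col3a1 was in the group as well, at 57.4, 32.2 and 11.3.

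**Figure D4:**
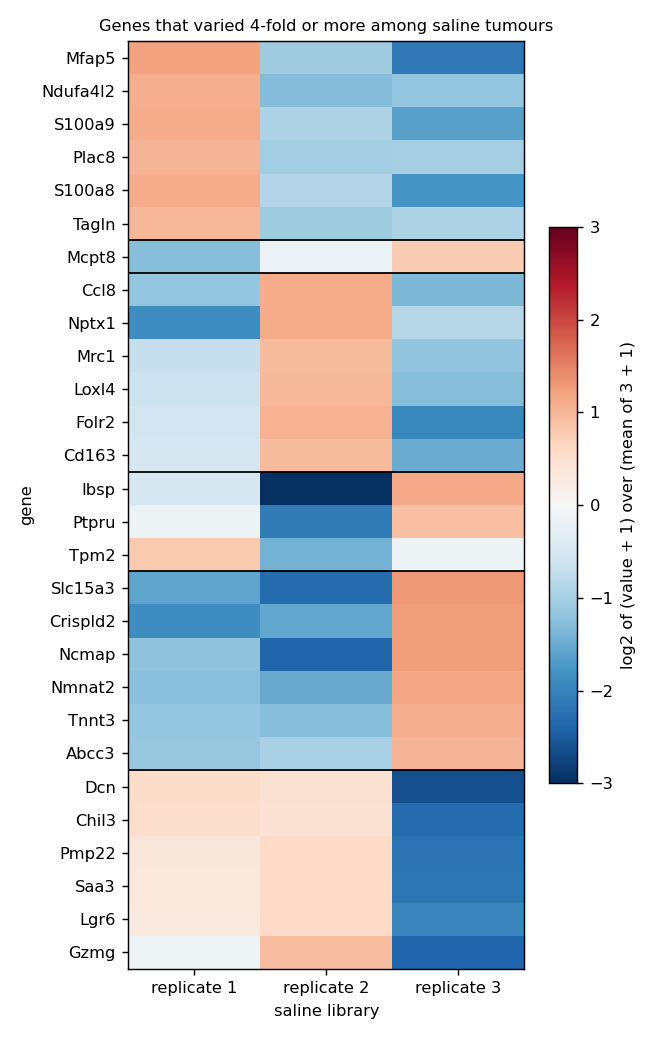
Log2 of (coding TPM + 1) over (mean of the 3 + 1) in each saline replicate for the named genes that varied 4-fold or more, in blocks by the library that stands apart and its direction, in the order of the replicates with higher before lower. Red is above the mean and blue below it. The 6 genes of the last block, from Dcn to Gzmg, are far below their mean in replicate 3, and Gzmg is highest in replicate 2.

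**Figure D5:**
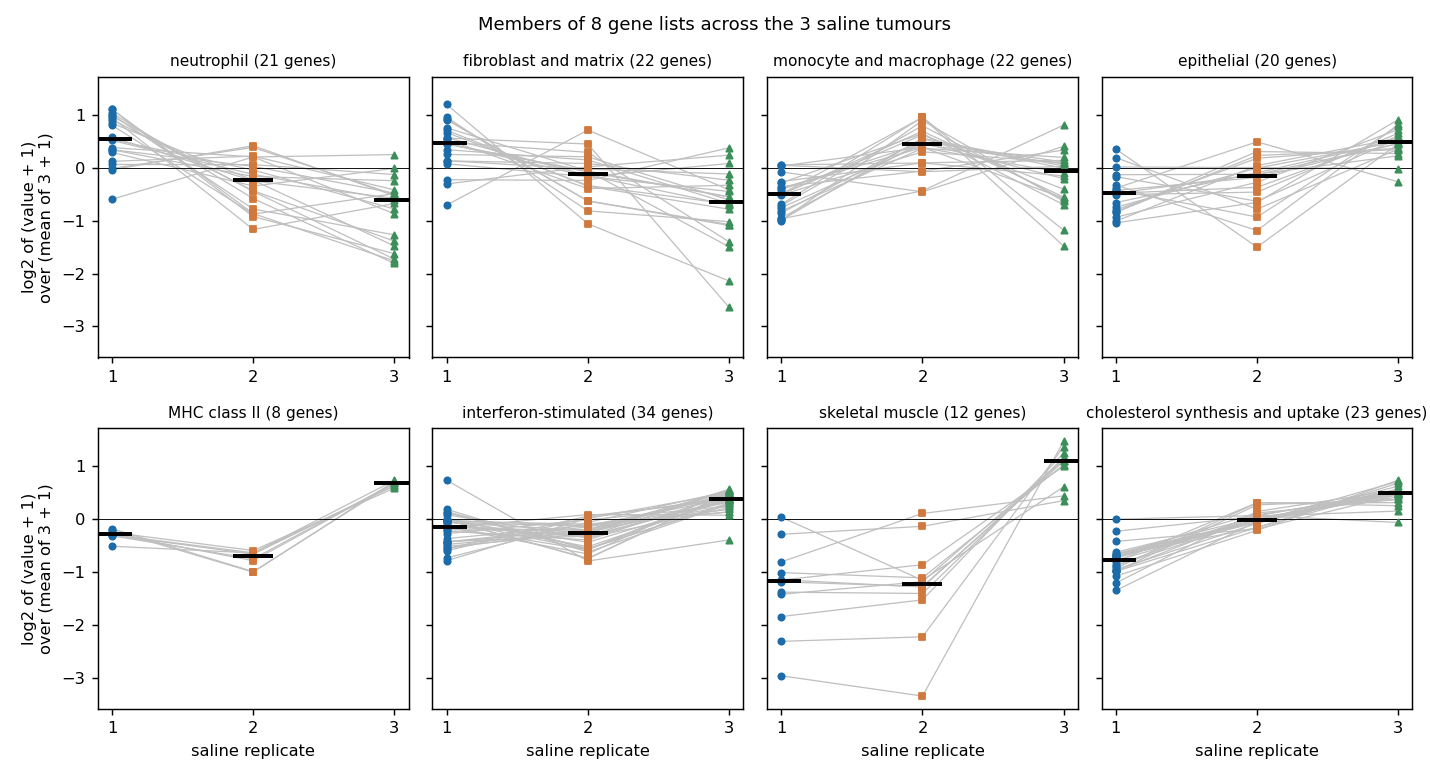
Log2 of (coding TPM + 1) over (mean of the 3 + 1) for each member with a mean of at least 1 of 8 gene sets, with a grey line for each gene and a black bar for the median. Neutrophil and matrix genes lie mostly highest in replicate 1, macrophage genes in replicate 2, and epithelial, MHC class II, interferon-stimulated, muscle and cholesterol genes in replicate 3.

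Antigen presentation genes were highest in replicate 3. All 13 MHC class I genes were, beside 42.2% of all genes, and their sum was 1.30%, 1.31% and 1.88% of the coding total. B2m, the invariant light chain, stood at 4096, 4592 and 6047, the heavy chain genes H2-K1 and H2-D1 at 4342, 3897 and 5980 and at 1874, 2221 and 2776, and the immunoproteasome subunit gene Psmb10 at 605, 431 and 794. All 8 MHC class II genes were also highest in replicate 3, with sums of 0.302%, 0.235% and 0.633%, a ratio of 2.69. Cd74, the invariant chain, stood at 1155, 1058 and 2738, H2-Aa at 652, 377 and 1240, H2-Eb1 at 537, 397 and 1075 and H2-Ab1 at 499, 394 and 949. Ciita, the transactivator on which class II transcription depends, was low with the same order (3.28, 2.01 and 7.31). With size factors all 13 and all 8 were again highest in replicate 3.

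The list sums of cells that can carry MHC class II did not have one order. The macrophage sum was highest in replicate 2, and the ratio of the class II to the macrophage sum was 1.41, 0.506 and 2.34. The dendritic cell sum was highest in replicate 3, at 0.0136%, 0.0123% and 0.0158%. The pan-leukocyte sum was lowest in replicate 3, whereas its median member stood at 60.1, 68.8 and 68.1 coding TPM. Of the dendritic cell list, 4 of 7 genes with a mean of at least 1 were highest in replicate 3, beside 42.2% of all genes. The other 3 were highest in replicate 1. Among the 4 were Itgax, the gene of CD11c (2.02, 2.26 and 7.39), and Zbtb46 (0.986, 1.16 and 2.79). The part of these cells in the class II values was not tested.

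Interferon-stimulated genes were mostly highest in replicate 3 as well. Their 34 measured genes summed to 0.206%, 0.164% and 0.273%. Of these genes, 32 were highest in replicate 3, beside 42.2% of all genes, and 30 with size factors, beside 37.8%. Bst2, the tetherin that holds back budding viruses, stood at 568, 488 and 803, and the ubiquitin-like Isg15 at 182, 163 and 226. The transcription factor Irf1 had 154, 106 and 200, and the GTPase Igtp 112, 67.2 and 160. Gbp2, a guanylate-binding protein, had 84.0, 62.2 and 134. The 2 exceptions were Ifi27l2a (165, 56.6 and 75.02) and Irf7 (61.3, 73.3 and 72.7). None of the 27 with a mean of at least 10 varied 4-fold. The interferon gamma gene Ifng was at 1.42, 1.10 and 2.12.

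Promoters of these sets are shown because most of their genes were highest in replicate 3. Class II promoters are known to carry a CCAAT-type Y box bound by NF-Y, and interferon-stimulated promoters an element bound by STAT and IRF factors. A pair of short patterns was searched for on both strands in the RefSeq promoters of GRCm38.p6, from 250 bases before to 50 after each start. TGATTGG, a form of the Y box, was found in 4 of the 5 class II genes with an entry (of 8), and in 8.995% of 27025 genes. GAAA followed by any 2 bases and a further GAAA, a form of the interferon-stimulated response element, was found in 16 of the 26 interferon-stimulated genes with an entry (of 35), and in 3.99% of all. The Y box form was also in 7 of 11 class I and 2 of 26 interferon-stimulated genes, and the response element in 2 of 11 class I and 0 of 5 class II genes. The patterns were kept from 11 tried, 1 of them the reverse of another, in a first look at 44 genes that were picked after their values were seen. A match is a description of letters, not a bound site. The 100 bases before the start are given 5′ to 3′ on the gene's own strand, with matches in capitals.
H2-Eb1: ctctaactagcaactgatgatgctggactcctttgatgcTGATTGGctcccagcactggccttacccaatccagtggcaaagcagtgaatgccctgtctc
H2-Aa: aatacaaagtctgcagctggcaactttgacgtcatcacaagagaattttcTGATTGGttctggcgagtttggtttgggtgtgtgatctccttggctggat
H2-DMb1: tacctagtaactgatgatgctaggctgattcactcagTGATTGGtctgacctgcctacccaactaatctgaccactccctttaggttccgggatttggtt
H2-Oa: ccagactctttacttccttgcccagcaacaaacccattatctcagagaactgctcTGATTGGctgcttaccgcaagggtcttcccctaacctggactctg
Isg15: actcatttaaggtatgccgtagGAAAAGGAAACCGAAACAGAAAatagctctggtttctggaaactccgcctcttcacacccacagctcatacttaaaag
Gbp2: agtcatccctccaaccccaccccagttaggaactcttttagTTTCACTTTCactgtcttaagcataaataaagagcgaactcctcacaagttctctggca

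These windows lie at chr17:34305767-34305866 (H2-Eb1, plus strand), chr17:34287824-34287923 (H2-Aa, minus strand), chr17:34153091-34153190 (H2-DMb1, plus strand), chr17:34092279-34092378 (H2-Oa, plus strand), chr4:156200819-156200918 (Isg15, minus strand) and chr3:142620563-142620662 (Gbp2, plus strand). The Y box form began 45 to 63 bases before the start in the 4 class II genes. In Isg15 the response element form matched at 3 overlapping places, and in Gbp2 the match is its reverse complement. H2-DMb1, which helps to load peptides on class II, stood at 72.6, 40.9 and 134 coding TPM, and H2-Oa, its regulator, at 1.09, 0.625 and 3.01.

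Most genes of cholesterol synthesis and uptake were lowest in replicate 1 and highest in replicate 3. A set of 23 genes of the pathway was put together after a member was seen to vary. Its sum was 0.0501%, 0.0921% and 0.131% of the coding total. Of the 23, 21 were highest in replicate 3, beside 42.2% of all genes, and 21 with size factors, beside 37.8%. Fdps, the farnesyl diphosphate synthase, stood at 79.9, 206 and 273, the sterol oxidase Msmo1 at 72.6, 114 and 163 and the squalene epoxidase Sqle at 28.0, 51.8 and 101. Cyp51, the sterol demethylase, had 19.3, 36.2 and 53.8. Insig1 and Tm7sf2 were the exceptions. In a later look at the same patterns, TGATTGG was found in the promoters of 11 of the 17 genes with an entry, beside 8.995% of all. The sterol response element form TCACNCCAC was found in 1 of the 17 and in 1.44% of all. The 3 of the 11 with the highest mean are shown, with the Y box form or its reverse complement in capitals.
Msmo1: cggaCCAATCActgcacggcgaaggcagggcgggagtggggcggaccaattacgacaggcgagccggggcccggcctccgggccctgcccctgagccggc
Idi1: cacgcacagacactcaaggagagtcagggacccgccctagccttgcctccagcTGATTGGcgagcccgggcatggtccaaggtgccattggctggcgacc
Ebp: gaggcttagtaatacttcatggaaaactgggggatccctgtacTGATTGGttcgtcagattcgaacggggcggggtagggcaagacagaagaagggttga

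They lie at chr8:64733579-64733678 (Msmo1, minus strand), chr13:8885506-8885605 (Idi1, plus strand) and chrX:8193513-8193612 (Ebp, minus strand). Idi1, the isomerase of isopentenyl diphosphate, stood at 19.4, 35.2 and 63.7, and Ebp, a sterol isomerase, at 29.2, 35.8 and 38.3.

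Secreted signals were dominated by a few genes. The cytokine and chemokine list summed to 0.183%, 0.302% and 0.115%, and Ccl8 made up 38.9% of its mean. Ccl6, a myeloid chemokine, stood at 418, 462 and 230, and Il1b, the inflammasome cytokine, at 236, 63.3 and 67.5. Il6 had a mean of 1.37 and Tnf one of 0.852. Of 21 genes with a mean of at least 1, 11 were highest in replicate 1, 7 in replicate 2 and 3 in replicate 3. The shares of all genes were 16.4%, 41.4% and 42.2%. Proteases and their inhibitors summed to 0.340%, 0.465% and 0.366%, led by the lysosomal proteases Ctsl (1270, 2161 and 1432), Ctsd (457, 571 and 632) and Ctsb (254, 419 and 361) and by the inhibitor Timp1 (623, 399 and 316). Checkpoint genes were low. Tigit was the highest, at 19.0, 34.2 and 19.7, followed by Ido1 (7.36, 10.2 and 25.7), Vsir (7.93, 13.5 and 10.9) and Cd274, which encodes PD-L1 (11.9, 8.61 and 9.91). Immediate early and heat shock genes summed to 0.112%, 0.102% and 0.118%, with Junb (459, 305 and 483), Jund (173, 181 and 269), Ier3 (174, 152 and 134) and Ier2 (89.4, 87.6 and 95.2) the highest.

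Some variable genes lay close to each other in the genome (GRCm38), mostly as members of the same gene family. Of the 66, 23 (34.8%) had another variable gene within 500 kb, against 388 of the 6847 other genes with a mean of at least 10 (5.67%). Each member of a family is counted singly here, so these shares are not a test of position. Chromosome 16 held 6 stefin A genes between 36156811 and 36455392, with Stfa2l1 at 36156811 to 36161953. All 7 stefin A genes with a mean of at least 1 were highest in replicate 1, beside 16.4% of all genes. This family was chosen after its values were seen and holds the 6 variable genes again, so its count adds no separate support. Chromosome 14 held Mcpt8 and the granzyme genes Gzmd, Gzmg and Gzmf between 56082166 and 56211417. Mcpt8 was highest in replicate 3 and its 3 granzyme neighbours in replicate 2, so neighbours did not always share an order. S100a8 (90668978 to 90670035) and S100a9 (90692632 to 90695721) lie side by side on chromosome 3. Retnla and Retnlg on chromosome 16 also differed, with 13.6, 15.98 and 2.85 against 221, 63.5 and 44.9. The other groups were Ccl9, Wfdc17 and Wfdc21 on chromosome 11, Prl2c2 and Prl2c3 on 13, and Cxcl2 and Cxcl3 and the pair of Dmp1 and Ibsp on 5. Neighbours that are near-identical copies, such as the stefins, granzymes and Prl2c genes, can share reads and then do not count separately.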

How the data were processed

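RNA of 3 saline-injected tumours was analysed out of 7 libraries. Per the submitters' processing notes, Salmon 1.4.0 and the mouse build GRCm38.p6 were used by the authors, who also list DESeq2 1.28.0, Trim Galore 0.6.6 and FastQC 0.11.9, and they deposited TPM values per gene. No source used here states the transcript annotation or how transcripts were summed. The table's 4 other per-sample columns were not used.

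Gene types, symbols and coordinates came from GENCODE M21, in which 55227 of 55487 identifiers were found with the version dropped. Values of nuclear protein-coding genes were rescaled to 1000000. A library rich in other RNA would otherwise have lower values for all its coding genes. No library pair held identical values. Genes with a mean of at least 10 whose highest library was at least 4 times the lowest, on values + 1, were called variable.

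A total of 32 disjoint lists (460 genes) were used. Ahsp and Mx2 were not found as coding genes. List order used members with a mean of at least 1. The genes named were the 25 highest, up to 6 variable genes per library and direction (predicted names skipped), up to 4 members per list, 6 steady genes and 16 single genes. Some of these genes are not reported here. Members, lists and rules were chosen with earlier results of these data known, and gene families and further genes after their values were seen. Alternatives were other pseudocounts, filters, scalings, totals and leaving out libraries. Python 3.11.15, pandas 2.3.3 and numpy 2.4.6 were used.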

Additional observations from a re-analysis of the deposited data

How the results depend on the processing

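The 66 variable genes became 73 with a pseudocount of 0.1 and 41 with 5, 130 with a mean of at least 1 or with no filter, and 24 with a mean of at least 50. Of the 67 found on deposited TPM only 41 were among the 66, with 5850 genes tested in place of 6913, and 62 of the 68 with size factors were. Leaving out 1 library gave 12 (without replicate 3) to 44 (without replicate 2). Genes with replicate 1 as the lower library went from 2 to 0 with size factors. Shares were computed for all 32 lists and are given for 9, picked after their values were seen. With ribosomal protein genes taken out of the total they became 0.785% for epithelial, 0.303% for fibroblast and matrix, 0.0233% for endothelial, 0.473% for macrophage, 0.871% for neutrophil, 0.00644% for T cell, 2.24% for MHC class I and 0.322% for interferon-stimulated genes. MHC class II genes took 0.583% of that total. As a percent of all deposited TPM, fibroblast, endothelial, neutrophil, T cell, class I and interferon shares were 0.138%, 0.0106%, 0.352%, 0.00297%, 1.04% and 0.147%. Epithelial, macrophage and class II shares were 0.372%, 0.222% and 0.273% on that scale. Without the highest member, epithelial, fibroblast, endothelial, neutrophil, T cell, class I, class II and interferon shares were 0.307%, 0.0699%, 0.0112%, 0.216%, 0.00314%, 1.00%, 0.225% and 0.152%. The macrophage share without its highest member was 0.248%. The log2 ratio of the highest to the lowest library of the fibroblast list was 0.258 with size factors and 0.0762 without. With size factors, chosen after seeing the data for this purpose, the library with the highest sum differed in 3 of the 32 lists and the one with the lowest sum in 5. Replicate 1 became the highest for endothelial (0.0163%, 0.0161% and 0.0140%), pan-leukocyte (0.101%, 0.0929% and 0.0817%) and immediate early genes (0.121%, 0.0971% and 0.115%), and replicate 2 the lowest for MHC class I (1.404%, 1.24% and 1.82%). Depth is unknown, so the error of low values cannot be given, and with 3 libraries no spread can be tested. No paired analysis was possible because only 1 group was used.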

Other observations

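Some genes were high that belong to none of the lists. Tslp, the cytokine thymic stromal lymphopoietin, stood at 1408, 1994 and 1691 coding TPM in replicates 1, 2 and 3, above the neutrophil gene S100a8 in replicates 2 and 3. Apoe, a lipid carrier that macrophages secrete, stood at 1038, 2870 and 1482, and Mgp, an inhibitor of matrix calcification, at 2065, 1759 and 886. Tnnt2, the cardiac troponin T gene, stood at 455, 303 and 873, far above the skeletal muscle gene Acta1, which was at 0.401 and 0.0744 in replicates 1 and 2. The metallothionein gene Mt2 had 3225, 1321 and 1468. Col7a1, the anchoring-fibril collagen of epithelia, had 137, 93.1 and 230, above the fibrillar collagen gene Col1a1.

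Lars2, the mitochondrial leucyl-tRNA synthetase, stood at 3501, 2402 and 1340, and mitochondrial ribosomal RNA took 0.854%, 0.342% and 0.194% of the deposited TPM in the same libraries. Both have the same order over the 3 libraries, and a relation was not tested. These genes were chosen after their values were seen.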
